A study of Homo sapiens with 4 samples.

Results

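The genes described here were 33 genes of fatty acid and cholesterol synthesis, out of 20136 protein-coding genes, chosen by name as lipid and sterol synthesis enzymes and the regulators of the SREBP pathway, with no measured value in the rule. Their chromatin was read from 3 lists of ChIP-seq peaks of LNCaP, a line of human prostate cancer cells that respond to androgens. H3K27Ac, an acetyl mark on the histones of active promoters and enhancers, was mapped once in cells without DHT (the H3K27Ac -DHT library, ethanol vehicle, passage 20) and once after 10 nM DHT for 4 h (H3K27Ac +DHT, passage 20), both in medium whose serum was stripped of steroids with charcoal. DHT (dihydrotestosterone) is the androgen that activates the androgen receptor most strongly. TCF7L2, a DNA-binding factor of the Wnt pathway, was mapped once in cells kept in unstripped serum (10% by the sample labels and another percentage by the study's methods, passage 15), so its library differed from the others in serum, passage and antibody together. Each condition was 1 library of 1 cell line. No spread between cultures was therefore measured, no test was possible, and both H3K27Ac values are given side by side. Each height is an average over a culture, in which more cells with the mark and more mark per cell cannot be told apart.

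Cells build fatty acids from citrate-derived acetyl-CoA and cholesterol from acetyl-CoA by way of mevalonate, farnesyl diphosphate and squalene. Both routes answer to the sterol regulatory element-binding proteins, made from SREBF1 and SREBF2. The precursors of these factors sit in the endoplasmic reticulum, SCAP carries them to the Golgi for cleavage when sterols are low, and INSIG proteins hold SCAP back when sterols are high. The released factors bind sterol regulatory elements in promoters, usually beside sites for NF-Y and Sp1. Androgens are known to raise lipid synthesis in LNCaP cells.

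A peak's height is the number of sequenced tags piled up at it, in the authors' peak calls. The vehicle list held 57623 peaks of 9 to 212 tags, the DHT list 60752 peaks of 10 to 213 tags, and the TCF7L2 list 20955 peaks of 15 to 229 tags. The number of reads per library was unknown, and DHT heights were a median 1.07 times the vehicle heights over the 49492 regions found in both lists. Direction was therefore also read from ranks, the place of a peak in its list from the tallest down. Low peaks are many and close in rank, so the size of a rank shift is not the size of a change in height. At the main start, ACSL1 with 21 and 20 tags had a shift of -4953.5. FDFT1 with 107 and 137 tags had one of 930. The cells carried the acetylation of luminal prostate epithelium, with a promoter peak in both lists at 7 of 7 luminal markers and at 0 of 4 basal markers. One of 4 adipocyte markers (PLIN1, 59 tags in both lists) and 1 of 4 hepatocyte markers (TTR, 17 and 26 tags) had one. Of all protein-coding genes, 56.3% had a promoter peak with vehicle and 57.5% with DHT. At the main start, 6 of the 7 luminal markers had a vehicle peak and all 7 had a DHT peak. The androgen-induced genes KLK3, FKBP5 and TMPRSS2 had promoter peaks of 10, 73 and 106 tags in the vehicle list, against 148, 134 and 125 tags after DHT. These are the tallest peaks over any annotated start. At the main start, 1 of the 3 genes had a vehicle peak and all 3 had a DHT peak.

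The sequences below are from the GRCh37 reference, 5′ to 3′ on the gene's strand. The first set shows promoters of 2 genes at the center of the pathway, the stearoyl-CoA desaturase gene SCD and the regulator gene SREBF2. The core of the sterol regulatory element (CACCCCAC), the GC box bound by Sp1 (GGGCGG) and the NF-Y box (CCAAT) are in capitals on either strand. The 250 bases before the main start are shown, the main start being that of the Ensembl canonical transcript. SREBF2 held 1 sterol element core, at an offset of -129 bp, 2 GC boxes and 1 NF-Y box, and SCD held 2 GC boxes and 2 NF-Y boxes.
SREBF2, chr22:42228859-42229108 (+): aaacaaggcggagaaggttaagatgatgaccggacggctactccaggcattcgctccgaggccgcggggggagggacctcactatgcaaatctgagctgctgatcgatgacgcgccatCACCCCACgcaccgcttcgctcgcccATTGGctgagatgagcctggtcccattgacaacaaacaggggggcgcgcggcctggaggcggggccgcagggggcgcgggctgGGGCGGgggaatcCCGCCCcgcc
SCD, chr10:102106740-102106989 (+): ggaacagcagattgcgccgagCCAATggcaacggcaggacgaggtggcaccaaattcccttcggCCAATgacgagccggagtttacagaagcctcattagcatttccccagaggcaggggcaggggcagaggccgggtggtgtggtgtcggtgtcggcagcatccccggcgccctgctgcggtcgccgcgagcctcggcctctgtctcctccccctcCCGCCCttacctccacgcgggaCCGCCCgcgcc

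The second set shows 2 androgen response elements found away from every promoter in the central 1000 bp of H3K27Ac regions of at least 30 tags around these genes. The element was searched as GNACA, 3 bases of any kind and TGTNC, and is in capitals. Both lie near SCAP, the first in its intron at the center of a region of 40 vehicle tags and 112 DHT tags, and the second in an intron of the neighbouring gene PTPN23, in a region of 34 and 42 tags.
SCAP intron, chr3:47497421-47497465 (-): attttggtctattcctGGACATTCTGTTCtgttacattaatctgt
PTPN23 intron, chr3:47436115-47436159 (-, the strand of SCAP): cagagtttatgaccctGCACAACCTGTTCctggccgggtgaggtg

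The third set shows the letters CTTTGAT, the form that TCF7L2 prefers, or their reverse complement in capitals, in the central 300 bp of TCF7L2 peaks. They come from the only peak near ACSL4 (112 tags), a peak in a CCDC134 intron upstream of SREBF2 (42 tags) and the promoter peak of PMVK (24 tags).
ACSL4 intron, chrX:108952427-108952465 (-): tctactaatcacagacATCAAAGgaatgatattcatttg
SREBF2 upstream, chr22:42218969-42219007 (+): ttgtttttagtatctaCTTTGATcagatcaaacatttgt
PMVK promoter, chr1:154909858-154909896 (-): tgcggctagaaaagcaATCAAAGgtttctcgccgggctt

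Most of the 33 genes carried acetylated promoters before any androgen was given. A promoter was taken from 1000 bp before to 100 bp after any annotated start of a gene. With vehicle, 29 of 33 genes (87.9%) had an H3K27Ac peak there, against 56.3% of all protein-coding genes, and with DHT 30 of 33 (90.9%), against 57.5%. Their tallest promoter peaks had a median of 72 tags in the vehicle list, and of 81 tags after DHT. At the main start alone, 29 and 30 genes had a peak, where 51.5% and 52.8% of all genes with a main start did, and the median heights were 67 and 73.5 tags. Heights at the main start are the values given below for each enzyme. A peak over a start can also cover a neighbour's promoter, as at FASN, ACACA, IDI1, MVK, ACAT2, DHCR7 and NSDHL. Its height was not assigned to either gene.

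**Figure D1:**
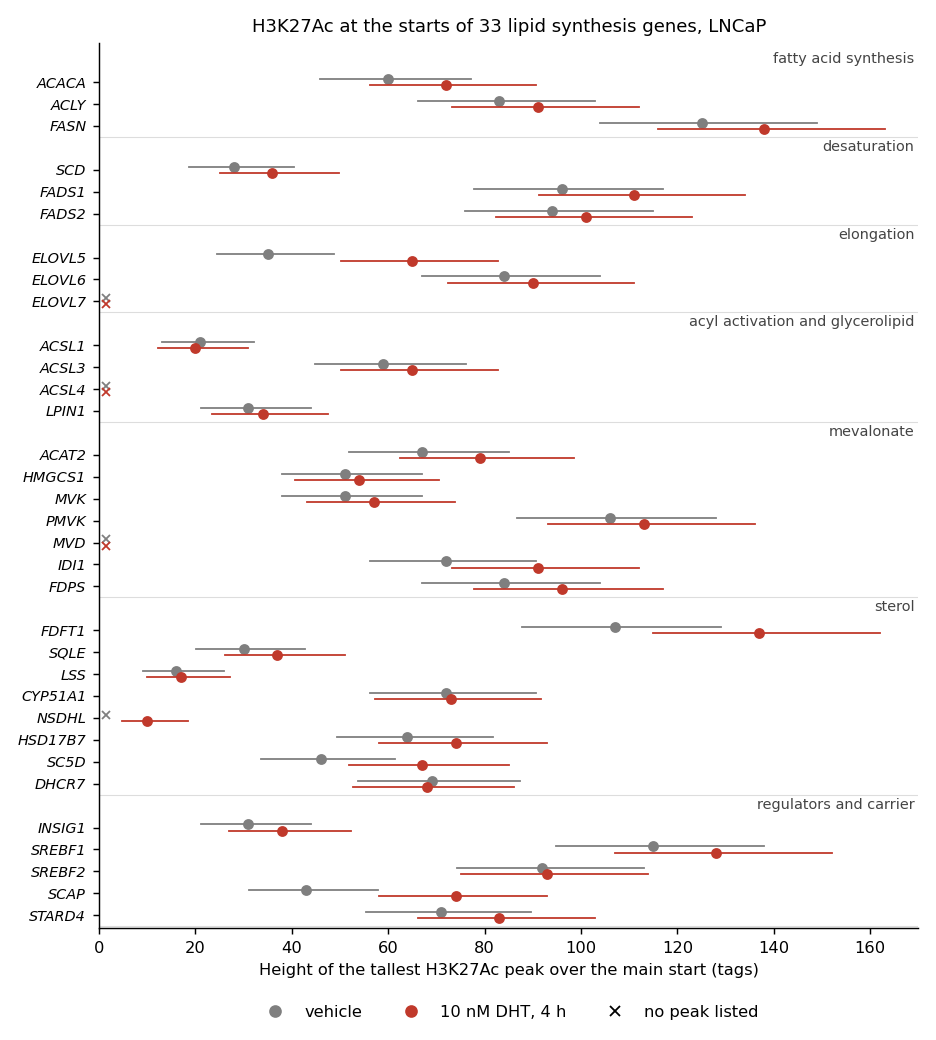
Heights, in tags, of the H3K27Ac peaks over the main starts of the 33 genes (the tallest of each gene), grouped by role, with vehicle (grey) and DHT (red). Points are single libraries, lines are exact 95% Poisson intervals of the counts and cover counting error only, and crosses mark no listed peak. The intervals of both libraries do not overlap at ELOVL5 (35 and 65 tags) and SCAP (43 and 74 tags), and they overlap at the other genes with a peak in both lists.

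The 3 enzymes that make palmitate had peaks at their starts in both lists. ACLY, which releases acetyl-CoA from citrate, had 83 tags in the vehicle list, against 91 in the DHT list, and heights below keep this order. ACACA, whose product acetyl-CoA carboxylase makes malonyl-CoA, had 60 and 72 tags at its main start. FASN, which builds palmitate, had 125 and 138 tags in a peak that ran over 17519 bp with vehicle and 20639 bp with DHT. This peak was the tallest over the starts of the 33 genes in both lists. It also covered a promoter of the neighbouring gene CCDC57, and its region was centered 6.96 kb before the FASN start. Its height therefore need not be that at the FASN start. The intervals of the FASN peak (104 to 149 tags and 116 to 163 tags) overlapped, and its DHT height was 1.1 times its vehicle height. ACACA spans a long stretch of chromosome 17 with many annotated starts, and its tallest promoter peak (109 and 130 tags) lay 109 kb inside the gene.

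Among the desaturases, FADS1 and FADS2, neighbours that insert double bonds into polyunsaturated fatty acids, had tall starts of 96 and 111 tags at FADS1 and of 94 and 101 tags at FADS2. SCD, which makes oleate from stearate, had a low start of 28 and 36 tags. Its rank moved up by 2999 places with DHT while the heights differed by 8 tags. The tallest region near SCD lay 25.5 kb after its start, between genes, with 85 and 100 tags.

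The elongases, which lengthen fatty acids, differed from each other. ELOVL6, which extends palmitate, had 84 and 90 tags at its start. ELOVL5, which extends polyunsaturated fatty acids, had 35 and 65 tags, a fold of 1.86 (95% counting interval 1.21 to 2.89) and a move of 9790 ranks, the largest at any of these promoters. ELOVL7 had no H3K27Ac peak at its start in either list.

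The next genes encode enzymes that activate fatty acids with coenzyme A and a phosphatase of glycerolipid synthesis. ACSL3 had 59 and 65 tags, and LPIN1, the phosphatase, had 31 and 34 tags. ACSL1 had 21 and 20 tags at its main start, a rank shift of -4953.5, while a peak at an internal start about 20.2 kb into the gene had 82 and 90 tags. ACSL4 had no promoter peak, and the only H3K27Ac region within 50 kb of it was an intronic one of 9 and 23 tags.

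Starts of the mevalonate enzymes ranged from no peak to over 100 tags. PMVK, the second kinase of the route, stood highest with 106 and 113 tags. FDPS, which makes farnesyl diphosphate, had 84 and 96 tags. IDI1, the isopentenyl diphosphate isomerase, had 72 and 91 tags and moved up 1858 ranks. ACAT2, the cytosolic thiolase of the first step, had 67 and 79 tags. HMGCS1, the synthase of the next step, had 51 and 54 tags (shift -726), and MVK, the first kinase, had 51 and 57 tags. MVD, the decarboxylase between PMVK and IDI1, had no promoter peak in either list. Its tallest region was 45.9 kb away in an intron of ZC3H18, with 48 and 50 tags.

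The sterol enzymes likewise spread widely. FDFT1, squalene synthase and the first enzyme committed to sterols, had 107 and 137 tags. HSD17B7, CYP51A1 and DHCR7, all enzymes that trim lanosterol to cholesterol, had 64, 72 and 69 tags before DHT, against 74, 73 and 68 after it. SC5D, the lathosterol oxidase, had 46 and 67 tags, a fold of 1.46 with an interval of 0.986 to 2.17, and moved up 4963 ranks. SQLE, the squalene epoxidase, was low at 30 and 37 tags and moved up 2044 ranks. LSS, which closes the sterol rings, was lower still at 16 and 17 tags (shift -2502). NSDHL had no vehicle peak and a DHT peak of 10 tags, the lowest height in that list. The shifts of DHCR7 and CYP51A1 were -1498 and -985 ranks.

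Of the regulators, SREBF1 and SREBF2 had starts of 115 and 128 tags at SREBF1 and 92 and 93 tags at SREBF2 (shift -646). INSIG1, which retains SCAP, had 31 and 38 tags and moved up 1890.5 ranks. SCAP had 43 and 74 tags at its main start, a fold of 1.72 (1.17 to 2.57), where the vehicle list held 2 peaks and the DHT list 1. A taller SCAP peak of 121 and 156 tags lay 32.4 kb inside the gene over an internal annotated start. STARD4, a carrier that moves cholesterol between membranes, had 71 and 83 tags.

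Across the 29 main starts with a peak in both lists, 27 (93.1%) were taller with DHT, beside 85% of 10109 such starts of all genes. The DHT to vehicle ratio ran from 0.952 to 1.86, with a median of 1.12, against a median of 1.14 over all genes. At the main start 20 of 30 genes (66.7%) ranked higher with DHT, where 62.2% of all genes did. With any annotated start, 22 of 30 (73.3%) did, where 59.6% of all genes did. With only the 5′ end of the gene, 17 of 27 (63%) did, where 62.1% of all genes did. For the tallest peak anywhere from 50 kb before to 50 kb after a gene, 21 of 33 did (63.6%), where 51% of all genes did, and with 100 kb on each side 17 of 33 did (51.5%), where 50.2% did. With 1 library per condition none of these shares was tested.

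Peaks of both lists that overlapped were joined to regions, which gave 235 regions within 50 kb of the genes, of which 188 were in both lists, 17 in the vehicle list only (7.23%) and 30 in the DHT list only (12.8%). Of the 52796 regions around all protein-coding genes, 8.99% were in the vehicle list only and 14.3% in the DHT list only. A region counted as past the fold when its taller height was at least 30 tags and the heights differed by 1.5 times or more, an unlisted height being taken as the lowest height of that list. Of 124 regions of at least 30 tags, 15 were higher with DHT (12.1%) and 1 was lower (0.806%), beside 19.1% and 6.38% of 26510 such regions of the genome. Of the 22207 such regions around all protein-coding genes, 18% were higher and 4.83% were lower. The long gene ACACA alone had 39 of the 235 regions and 20 of the 124, with 1 of the 15 higher ones and the 1 lower one. Over promoters of the 33 genes, 2 of 40 regions were higher (5%) and 0 were lower, beside 7.79% and 1.21% of promoter regions. Over promoters of other genes only, 3 of 28 were higher (10.7%) and 0 were lower. Away from every promoter, 10 of 56 were higher (17.9%) and 1 was lower (1.79%), beside 24.6% and 8.9% of distal regions. Of the 16 regions past the fold 11 were distal (68.8%), where 88.4% of those of the genome were. Among regions of at least 30 tags listed in both conditions, 35 of 54 distal ones (64.8%) were taller with DHT by any amount, beside 52.5% of 17208 distal regions of the genome, with median ratios of 1.18 and 1.03. The corresponding median ratios of promoter regions of at least 30 tags were 1.14 and 1.13.

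**Figure D2:**
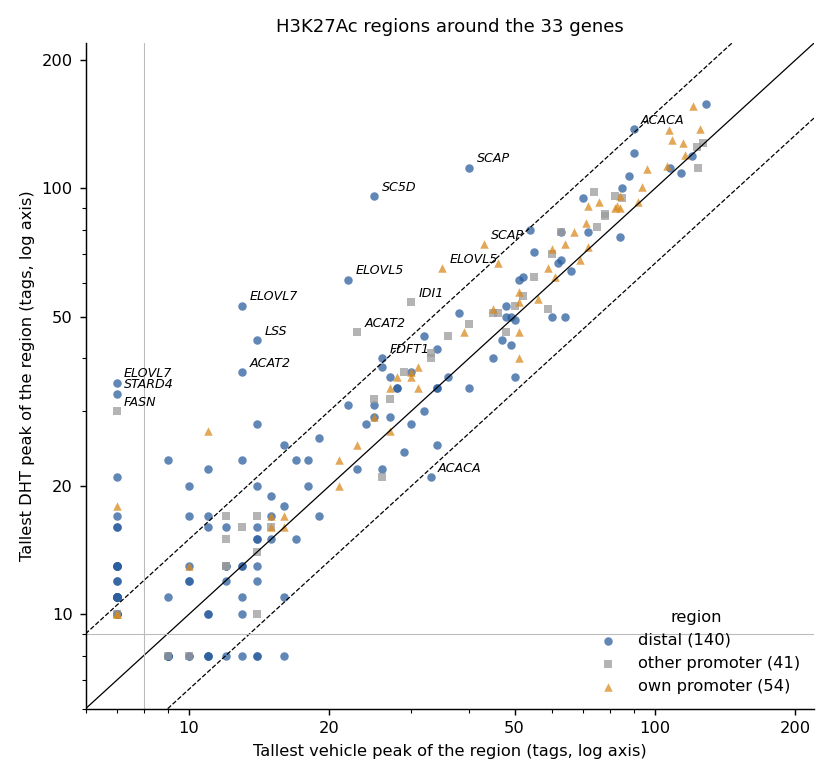
Each point is 1 of the 235 H3K27Ac regions within 50 kb of the 33 genes, at its vehicle height (horizontal) and DHT height (vertical) in tags, both on log axes, with the class of region by color and shape. The solid line marks equal heights, dashed lines a fold of 1.5, and points beyond the grey lines had no listed peak in that list. Of 16 named regions, which pass the fold with at least 30 tags, 15 lie above the upper dashed line.

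Among regions inside the genes themselves and listed in both conditions, the largest folds past the threshold lay in 4 genes. In an intron of SC5D, 7.66 kb after its start, a region of 4259 bp (chr11:121169010-121173269) had 25 and 96 tags, a fold of 3.84 (2.45 to 6.23). A much taller region 34.8 kb before SC5D had 120 and 119 tags. In an intron of ELOVL7, 16.9 kb after its start, a region (chr5:60122100-60124319) had 13 and 53 tags, a fold of 4.08 (2.19 to 8.15). A second ELOVL7 region, at the 3′ end of the gene (chr5:60047910-60049949), had no vehicle peak and 35 DHT tags. ELOVL7 thus had no acetylated start in either list and 8 regions in its surroundings, 5 of which were in the DHT list only. Apart from the region of 35 tags, these had 13, 11, 11 and 16 DHT tags, near the lowest listed height of 10. Over all genes, 14.3% of regions were in the DHT list only.

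In an intron of SCAP, 20.1 kb after its start, the region with the androgen response element shown above (chr3:47495160-47499419) had 40 and 112 tags, a fold of 2.8 (1.94 to 4.12). It lay between the main start and the tall internal peak, and SCAP had 2 of 6 regions of at least 30 tags past the fold. In an intron of ELOVL5, 47.4 kb after its start, a region (chr6:53164320-53168429) had 22 and 61 tags, a fold of 2.77 (1.68 to 4.74). Another intronic ELOVL5 region, 68.6 kb after the start, fell just short of the threshold with 54 and 80 tags (fold 1.48). Other intronic ELOVL5 regions had 13 and 13 tags at 15.5 kb, 49 and 50 tags at 22 kb, 47 and 44 tags at 26.9 kb, 16 and 25 tags at 39.9 kb and 32 and 45 tags at 72.8 kb (fold 1.41).

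**Figure D3:**
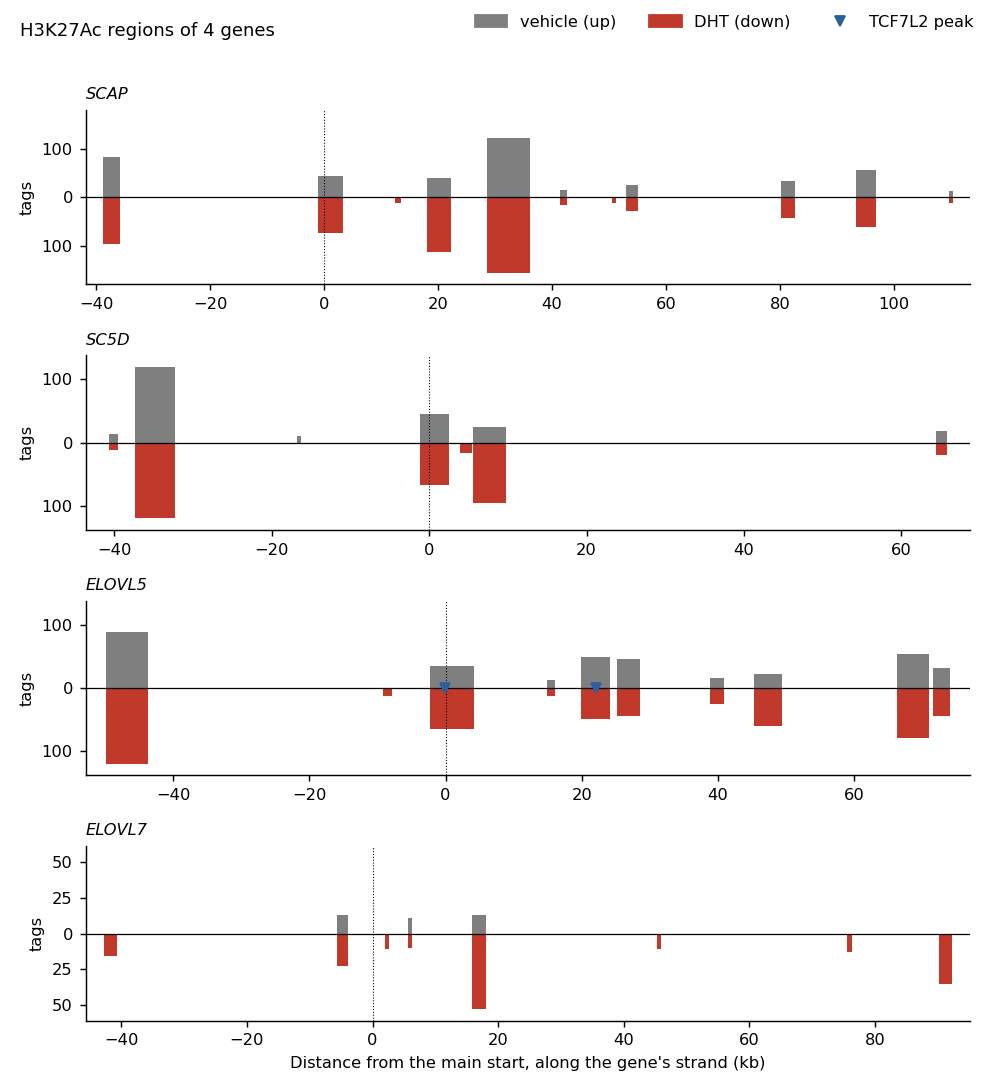
H3K27Ac regions around SCAP, SC5D, ELOVL5 and ELOVL7 by distance from the main start in kb along the gene's strand, with vehicle heights drawn upward and DHT heights downward in tags. Box widths are the widths of the regions, and triangles are TCF7L2 peaks. Red boxes exceed grey ones at 20.1 kb in SCAP (40 and 112 tags), 7.66 kb in SC5D (25 and 96 tags), 47.4 kb in ELOVL5 (22 and 61 tags) and 16.9 kb in ELOVL7 (13 and 53 tags).

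The other regions past the fold lay mostly in neighbouring genes. One 8.65 kb before STARD4, between genes, had no vehicle peak and 33 DHT tags. A broad region in an ACACA intron had 90 and 138 tags, a fold of 1.53 (1.17 to 2.02) that was 1.43 once DHT heights were divided by the median ratio of both lists. Near LSS, a region in an intron of SPATC1L had 14 and 44 tags (fold 3.14). Near ACAT2, regions in introns of SOD2 had 13 and 37 tags and 23 and 46 tags, the second also over a promoter of WTAP. A region at the promoter of WDR37, at -8.28 kb from the start of IDI1, had 30 and 54 tags. One within CCDC57 upstream of FASN had no vehicle peak and 30 DHT tags, and one in a CTSB intron near FDFT1 had 26 and 40 tags. The fold of the CTSB region was 1.54 (0.916 to 2.63), and 1.44 after the same division. The single region lower with DHT lay in an intron of TADA2A near ACACA, with 33 and 21 tags, and its interval of 0.35 to 1.13 included 1. These lists do not say which gene a distal region acts on.

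The androgen response element was in 0 of 33 promoters, counted from 1000 bp before to 100 bp after the 5′ end of the gene on both strands, beside 1.36% of all promoters. In the central 1000 bp of distal regions higher with DHT it was found in 1 of 10, the SCAP intron, beside 6.67% of 4390 such regions of the genome and in 1 of 45 distal regions within the fold (2.22%), that of PTPN23, beside 1.56%. In promoter regions higher with DHT it was in 1 of 5 (20%), the CCDC57 region near FASN, beside 6.65%. In promoter regions within the fold it was in 1 of 63 (1.59%), the tall internal region of SCAP, beside 0.987%. The search covered the 124 regions of at least 30 tags, and of the 4 that held the element 3 were around SCAP.

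Elements of sterol control were counted in the same promoters on both strands, each string of letters being counted regardless of overlap with another. The sterol element core CACCCCAC was in 5 of 33 promoters (15.2%, beside 8.63% of all), among them those of ACSL1, IDI1, DHCR7 and SREBF2. The GC box GGGCGG was in 28 (84.8%, beside 64.7%), the NF-Y box CCAAT in 25 (75.8%, beside 74%) and the E-box CACGTG in 7 (21.2%, beside 18.3%). Around the main start, the GC box was in 32 of 33 (97%, beside 72.6%), the NF-Y box in 30 (90.9%, beside 73.4%), the E-box in 10 (30.3%, beside 19.6%), the sterol element core in 4 (12.1%, beside 9.3%), the TCF7L2 form in 4 (12.1%, beside 10%) and the androgen response element in 0 (beside 1.3%). From the 5′ end of the gene, the TCF7L2 form CTTTGAT was in 4 promoters (12.1%, beside 10.8%). A match to these letters does not show that a factor was bound.

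TCF7L2 lay at the promoters of 13 of the 33 genes (39.4%), where it lay at 20.2% of all protein-coding genes, and at the main start of 12 (36.4%), beside 15.9%. The share with a TCF7L2 peak within 50 kb was that of the genome, with 22 of 33 (66.7%) beside 66.8%. The 14 peaks over their own promoters had 16 to 53 tags, with a median of 23 tags, beside 27 tags for all TCF7L2 peaks over promoters. The tallest lay at SREBF2 (53 tags), IDI1 (37 tags), FDFT1 (33 tags) and CYP51A1 (30 tags). All 14 lay inside an H3K27Ac peak of either list, beside 75.7% of TCF7L2 peaks over promoters. In the whole set, 36 of 54 TCF7L2 peaks did (66.7%, 95% Wilson interval 53.4% to 77.8%), beside 34.5% of all TCF7L2 peaks. For distal peaks the count was 16 of 32 (50%), beside 24.4%. Promoters of these genes also had H3K27Ac more often than those of all genes (87.9% beside 56.3% with vehicle), and its part in these shares was not tested.

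**Figure D4:**
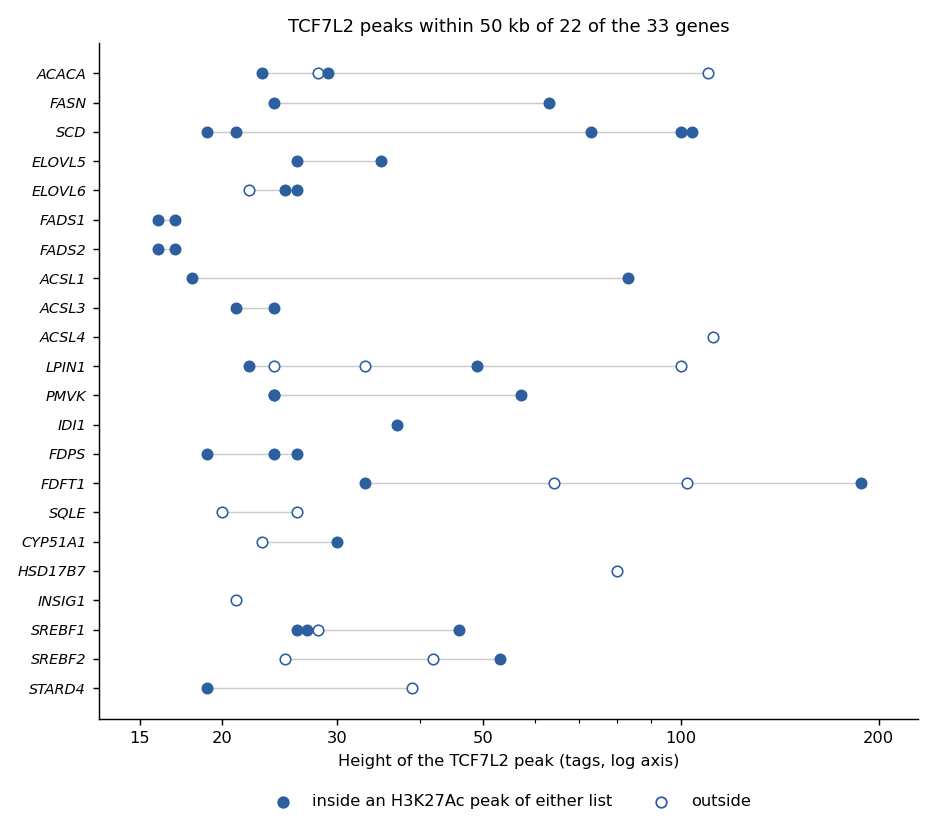
Heights of the TCF7L2 peaks within 50 kb of each gene, in tags on a log axis, for the 22 genes of 33 with at least 1 peak. Filled points lie inside an H3K27Ac peak of either list and open points outside, and FADS1 and FADS2 share their peaks. The tallest is the peak of 188 tags near FDFT1, and the median over the 54 peaks is 26.5 tags, beside 31 tags over all TCF7L2 peaks.

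SCD and LPIN1 had the most TCF7L2 peaks, 5 each. At SCD, which has a low acetylated start, all 5 lay in H3K27Ac, with 19 tags at the start, 21 and 73 tags at 12 and 17.7 kb, and 100 and 104 tags at 23.6 and 26.4 kb, the last pair inside the region of 85 and 100 H3K27Ac tags. At LPIN1 the tallest peak (100 tags) lay 83.8 kb after the start, outside H3K27Ac. ACACA, FDFT1 and SREBF1 had 4 each. Their tallest peaks were 110 tags in a TADA2A intron without H3K27Ac, 188 tags in a CTSB intron within H3K27Ac, and 46 tags in a RAI1 intron. ACSL4 had 1 peak of 112 tags in its intron, 23.9 kb after the start, in a place with no H3K27Ac peak. At ELOVL5, the start past the fold held a TCF7L2 peak of 26 tags. The intronic regions of SC5D, SCAP, ELOVL7 and ELOVL5 past the fold held none.

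No TCF7L2 peak was listed within 50 kb of 11 genes, namely ACLY, ELOVL7, ACAT2, HMGCS1, MVK, MVD, LSS, NSDHL, SC5D, DHCR7 and SCAP. Of these, 8 are enzymes of the cholesterol route. Thus 7 of its 15 enzymes had a TCF7L2 peak (46.7%) and 11 of the 13 fatty acid genes did (84.6%), beside 66.8% of all genes. The surroundings take in the whole gene and so grow with its length, whose part was not tested. FADS1 and FADS2 also share their peaks. At promoters the counts were 5 of 15 (33.3%) and 6 of 13 (46.2%), beside 20.2% of all genes. The letters CTTTGAT were in the central 300 bp of 5 of the 54 peaks (9.26%), beside 15.1% of all TCF7L2 peaks.

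Other genes of the pathway were a list of 22 that includes the citrate carrier, further elongases and the proteases that cleave the SREBP precursors. They had a promoter peak at 19 genes in each H3K27Ac list (86.4%), beside 56.3% of all genes with vehicle and 57.5% with DHT. Of these genes 12 of 20 with a peak in either list (60%) ranked higher with DHT at the promoter, beside 59.6% of all genes. Around them 7 of 76 regions of at least 30 tags were higher with DHT (9.21%) and 3 were lower (3.95%), beside 19.1% and 6.38% of the genome. Around all protein-coding genes the shares were 18% and 4.83%. Of the 10 genes of fatty acid oxidation, the route that breaks fatty acids down, all 10 had promoter peaks. At the promoter 7 ranked higher with DHT (70%, beside 59.6%). Around them 3 of 37 such regions were higher (8.11%, beside 19.1%) and 1 was lower (2.7%, beside 6.38%). Around the 3 androgen-induced genes, 15 of 18 such regions were higher with DHT (83.3%, beside 19.1%).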

How the data were processed

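The authors sequenced chromatin immunoprecipitated from LNCaP cells, mapped the H3K27Ac reads to hg19 by Bowtie 2 and ran Sole-search on each library alone to call peaks. Their paper names ELAND for the TCF7L2 reads, whereas the submitters' processing notes name CASAVA 1.8.2, Bowtie2 and BWA for every library. The deposited value of a peak is a signal, its height in whole tags, and no source used here states a scaling to read number, which was unknown. Input DNA was not analysed here.

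Gene models came from GENCODE release 44 mapped to GRCh37, the build of hg19, and 0 peaks lay outside its chromosomes. Surroundings reached 50 kb from the gene, and regions joined peaks of both H3K27Ac lists that overlapped by at least 1 bp. Ranks took the mean for ties, and a gene without a peak in 1 list was placed after the last rank of the longer list. The rank shift is the vehicle rank minus the DHT rank. Intervals are exact 95% Poisson or binomial ones and cover counting error only, since tags carried no molecular identifiers.

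The plan was to describe with heights the genes with a fold of 1.5 at their promoter or tallest region. It added the 6 largest and 6 smallest promoter rank shifts and the regulators. It also took the genes with the most or no TCF7L2 peaks and those without a promoter peak. Heights of the remaining members are also given, by role. The genes and lists were chosen with earlier results of these data known, and the main start was an addition made once the peak lists were known. Alternatives covered list length, surroundings, promoter window, fold, minimum height, scaling and overlap. The steps were tested on simulated data. Software was bedtools 2.31.1, pysam 0.24.0, scipy 1.17.1, pandas 2.3.3, numpy 2.4.6, matplotlib 3.10.9 and Python 3.11.15. One promoter sequence is not reported here.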

Additional observations from a re-analysis of the deposited data

How the results depend on the processing

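No paired analysis was possible because each condition had 1 library, which also left no replicate to leave out and no test. Of 44 recomputed counts, 38 stayed within 1.5 times the reported count. This band is wide and takes no account of the share over all genes. A count could stay within it and still come to match that share. With only the 5′ end of each gene, 17 of 27 ranked higher with DHT at the promoter (63%, beside 62.1%). With 100 kb on each side, 17 of 33 did for the tallest peak (51.5%, beside 50.2%). With at least 50 tags in a region, 8 of 82 regions were higher with DHT (9.76%, beside 17.1% of the genome) in place of 15, and 0 were lower (beside 4.58%) in place of 1. With a fold of 2, 0 regions were lower (beside 1.02%) and 10 were higher (8.06%, beside 11.5%). In promoters from 250 bp upstream to 50 bp downstream, the sterol element core was in 3 genes (9.09%, beside 2.95%), the E-box in 4 (12.1%, beside 8.34%) and the TCF7L2 form in 2 (6.06%, beside 2.38%). In the same window the NF-Y box was in 19 genes (57.6%, beside 35.9%) and the GC box in 24 (72.7%, beside 52.3%). Dividing DHT heights by the median ratio left 13 regions higher (10.5%, beside 16.6%), and the ACACA intron region (1.43) and the CTSB region near FDFT1 (1.44) fell under the fold of 1.5. The main start, and ranks over genes with a peak in both lists, were chosen after seeing the data. The unknown number of reads limits every comparison of heights, and heights near 10 tags lie at the lower end of the lists.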

Other observations

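Single genes of the wider lipid lists counted above are given here by value, and they were chosen after their values were seen. INSIG2, the second gene for a protein that retains SCAP, had a promoter peak of 116 tags with vehicle and 75 tags with DHT, a rank shift of -4903.5, whereas INSIG1 had 31 and 38 tags. The proteases that cleave the SREBP precursors, MBTPS1 and MBTPS2, had 38 and 53 tags and 25 and 33 tags, with rank shifts of 4516.5 and 3628. AGPAT2, an acyltransferase of glycerolipid synthesis, had a promoter peak of 45 tags with vehicle and 10 tags with DHT. Both are the tallest over any annotated start and may belong to different places. The tallest peak within 50 kb of AGPAT2 had 57 and 60 tags. ETFDH, of fatty acid oxidation, had 51 and 39 tags. Each value came from 1 library per condition and was not tested.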
